A study of Mus musculus with 8 samples.

Results

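The imprinted growth genes were followed in mouse liver endothelial cells after silencing of the RNA helicase DHX15. They were taken by symbol, whatever their values, and are H19, Igf2, Igf2r, Cdkn1c, Meg3, Dlk1, Peg3, Mest, Plagl1 and Grb10, 10 of the 49585 genes in the table, with 93 of its 122968 isoforms. The siL-DHX15-LEC libraries came from LEC of strain C57BL/6, hepatic endothelial cells immortalized with SV40, that carried a lentiviral shRNA against DHX15 under a Tet-On switch induced by doxycycline. The WT-LEC libraries came from the same SV40 line without silencing and are labelled untreated. Each group had 4 libraries, named here as replicates 1 to 4 in the order of their records. The paper calls its 4 RNA-seq samples per condition biologically independent, and the labels do not say whether these were separate cultures. The p-values therefore measure only the spread between libraries. No library had the vector and doxycycline without the silencing, so their effects and those of silencing cannot be told apart. The groups also ran on different flow cell lanes, so differences of lane and of condition cannot be told apart.

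Genomic imprinting is the expression of a gene from the maternal or the paternal copy alone, set by DNA methylation laid down in the germ line. Imprinted genes lie in clusters that share a control region, and many of them set the growth of the fetus and placenta: as a rule paternally expressed genes such as Igf2 promote growth and maternally expressed genes such as Igf2r, Cdkn1c and Grb10 restrain it. Most are abundant in fetal tissues, the liver included, and decline after birth. The values below are totals over both copies of a gene. An inbred strain gives no sequence difference by which the copies could be told apart, so imprinting itself was not measured.

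Values are normalized counts, reads divided by a size factor per library, summed over the isoforms for a gene. From 77335734 to 149258495 reads were recovered per siL-DHX15-LEC library and from 118830467 to 152045693 per WT-LEC library, and siL-DHX15-LEC replicate 1 was the shallowest. Dhx15 itself had 8936, 7956, 8930 and 10051 normalized counts in siL-DHX15-LEC replicates 1 to 4, against 26824, 27952, 26430 and 28006 in WT-LEC replicates 1 to 4, so 32.8% of the WT-LEC mean was left in libraries that are titled KO. Of the 16497 genes that averaged 10 or more, 5478 passed an adjusted p of 0.05 (limma, Benjamini-Hochberg), with 3039 higher and 2439 lower, and with all libraries scaled to equal totals the split was 1861 higher and 3897 lower. Of 15 endothelial markers 7 had a mean under 10, among them Cdh5, Tek, Tie1, Erg and Emcn, while Kdr, Flt1 and Egfl7 were expressed. Pecam1 averaged 37.0 in siL-DHX15-LEC and 25.2 in WT-LEC. Of 10 liver sinusoidal and lymphatic endothelial markers 6 had a mean under 10, among them Lyve1, Stab2, Clec4g and Prox1. Pdpn averaged 7072 in siL-DHX15-LEC and 7449 in WT-LEC, and Mrc1 was lower, with 31.5 in siL-DHX15-LEC and 84.0 in WT-LEC. The mesothelial markers Msln, Krt8 and Krt19 were abundant, but Muc16 averaged 22.5 in siL-DHX15-LEC and 31.1 in WT-LEC. Abundant too were Col1a1 of the stellate cell and fibroblast list and Spp1 of the cholangiocyte list. Other markers of these lists were low, such as Dcn with 24.8 in siL-DHX15-LEC and 31.7 in WT-LEC. Krt7 of the cholangiocyte list averaged 64.7 in siL-DHX15-LEC and 41.9 in WT-LEC. A mean under 10 was found for 1 of 10 mesothelial, 3 of 12 stellate cell and fibroblast (Lum, Reln and Lrat), and 1 of 6 cholangiocyte markers. The 22 hepatocyte and hepatoblast markers moved with the condition. Of these 20 were tested, 18 were lower and 0 higher, their summed level was 5195 to 6031 in siL-DHX15-LEC and 7876 to 8490 in WT-LEC, and 123 to 159 in siL-DHX15-LEC and 1565 to 1750.4 in WT-LEC without the transferrin gene Trf, which carried most of the sum. Their median log2 fold change was -5.12, and 10 of them had no reads in any siL-DHX15-LEC library. The fetal liver markers Afp and Gpc3 had means of 42.3 and 15.5 in siL-DHX15-LEC, against 40.4 and 14.1 in WT-LEC. The part of these other transcripts in the values of the imprinted genes was not tested.

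All 10 imprinted growth genes were measured and passed the filter on low values. Peg3 was lower in siL-DHX15-LEC, at 63.0% of its WT-LEC mean, and so was H19, at 74.4%. Grb10 was higher, at 116% of its WT-LEC mean, and so was Dlk1, at 114%. The remaining 6 genes, Igf2, Igf2r, Cdkn1c, Meg3, Mest and Plagl1, did not pass the test. The count of 4 of 10 called (2 higher, 2 lower) stands beside 33.2% called over all genes tested, so the share of these genes that moved was near the background. The groups of libraries did not overlap for the same 4 genes, beside 30.8% of all genes tested. The median log2 fold change was -0.14 over the 10 genes and -0.01 over all genes tested. Across the 18 alternatives Peg3 and Grb10 passed the threshold in every one, whereas H19 passed in 15 and Dlk1 in 12.

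**Figure D1:**
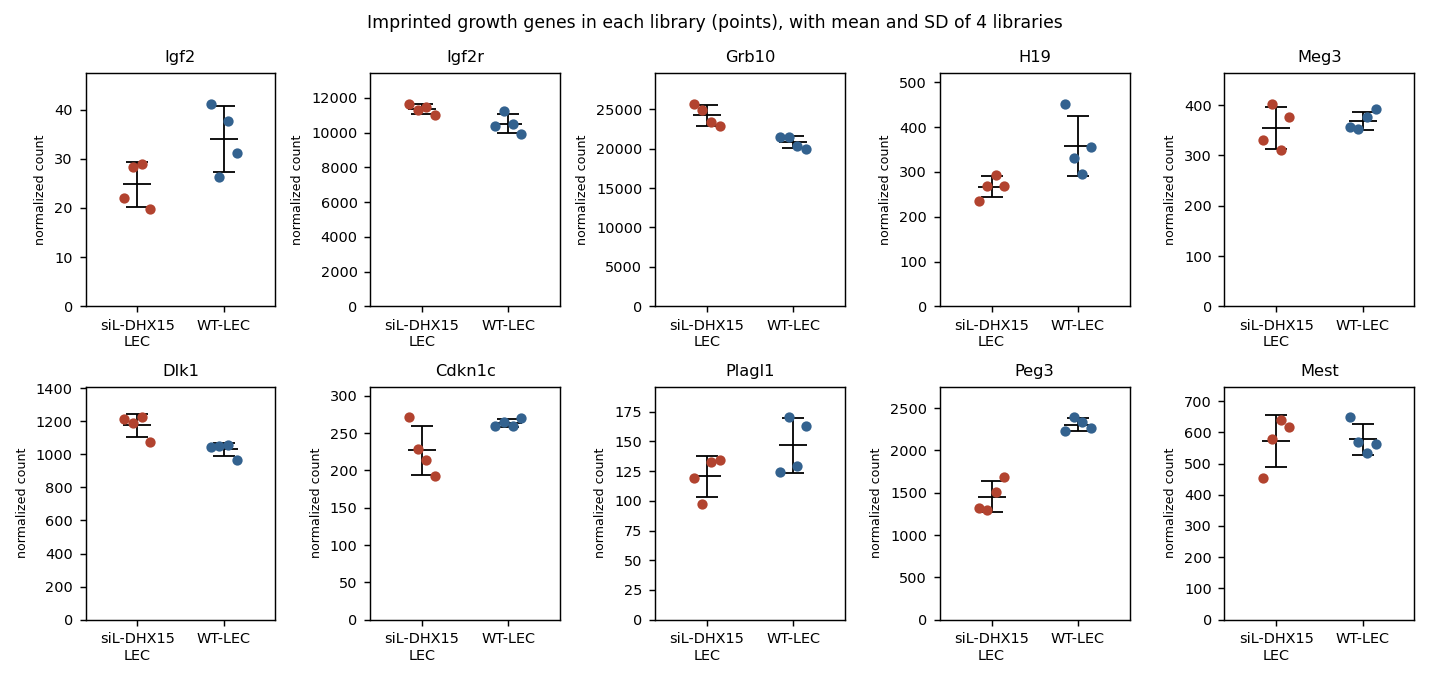
Normalized counts (vertical axis, from 0) of the 10 imprinted growth genes in each library, siL-DHX15-LEC (red) and WT-LEC (blue), with the mean and SD of 4 libraries as bars. The 4 siL-DHX15-LEC libraries lie below all WT-LEC libraries for Peg3 (1293 to 1688 against 2224 to 2396) and H19, and above them for Grb10 and Dlk1.

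The levels of the 10 genes spanned a wide range. Expressed per kilobase of annotated transcript, Grb10 was highest, with 4879 ± 289.8 normalized counts per kilobase in siL-DHX15-LEC and 4185 ± 163 in WT-LEC (SD, n = 4 each). Igf2r followed with 1284 ± 31.2 in siL-DHX15-LEC and 1186 ± 64.8 in WT-LEC, and then Dlk1 with 756 ± 49.5 in siL-DHX15-LEC and 654 ± 26.8 in WT-LEC. These 3 levels were separated from each other and from those of the other genes by more than their spread. Peg3 stood at 173 ± 23.3 per kilobase in siL-DHX15-LEC and 277 ± 10.03 in WT-LEC, and Mest at 223 ± 32.2 in siL-DHX15-LEC and 234 ± 27.0 in WT-LEC. Peg3 was thus the fourth in WT-LEC, above Mest, and the fifth in siL-DHX15-LEC, below it but within their spread. Next came Meg3 with 170.4 ± 19.1 in siL-DHX15-LEC and 166 ± 10.8 in WT-LEC, Cdkn1c with 158 ± 24.3 in siL-DHX15-LEC and 174 ± 1.249 in WT-LEC, and H19 with 127 ± 6.68 in siL-DHX15-LEC and 163 ± 26.6 in WT-LEC. Within this middle group Peg3, Meg3 and Cdkn1c did not differ beyond their spread in siL-DHX15-LEC, nor did Meg3, Cdkn1c and H19 in WT-LEC. The lowest were Plagl1, with 31.5 ± 4.11 in siL-DHX15-LEC and 43.3 ± 12.6 in WT-LEC, and Igf2, with 9.54 ± 3.61 in siL-DHX15-LEC and 12.3 ± 0.721 in WT-LEC.

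Peg3 (ENSMUSG00000002265.16, chr7:6703892-6730431, minus strand of GRCm38) encodes a large zinc finger protein and is expressed from the paternal copy. It had 1321, 1293, 1508 and 1688 normalized counts in siL-DHX15-LEC replicates 1 to 4, against 2224, 2396, 2339 and 2261 in WT-LEC replicates 1 to 4. The highest siL-DHX15-LEC library lay well below the lowest WT-LEC library. Its log2 fold change was -0.67 ± 0.08 (SE), with a 95% interval of -0.84 to -0.51 and an adjusted p of 0.000109 (limma). Over the 18 alternatives it ranged from -0.75 to -0.62, and the largest adjusted p was 0.00263. The difference lay outside the range from -0.56 to 0.39, the 5th to the 95th percentile of all genes tested. Among the 10 genes this held for Peg3 alone, and by definition a like share of all genes tested lies outside. The 95% interval of Peg3 reached into the range.

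Almost all Peg3 reads fell to the full-length isoform Peg3-001, which has 9 exons and encodes 1571 residues and held 95.7% of the gene. It had 1277, 1245, 1454 and 1606 normalized counts in siL-DHX15-LEC replicates 1 to 4, against 2147, 2282, 2211 and 2164 in WT-LEC replicates 1 to 4. The groups did not overlap, and the log2 fold change was -0.66 ± 0.08 (SE, adjusted p = 0.00267, limma over all isoforms). Peg3-003, an isoform with a retained intron that was named after its values were seen, had 44.1, 48.6, 53.5 and 66.2 in siL-DHX15-LEC replicates 1 to 4, against 74.2, 114, 111 and 90.9 in WT-LEC replicates 1 to 4. It was lower as well (-0.86 ± 0.20, SE, adjusted p = 0.0274), so the spliced and the intron-holding form were both lower. Its call was lost without any one of siL-DHX15-LEC replicates 1, 2 and 3 and WT-LEC replicates 2, 3 and 4, with adjusted p of 0.0705, 0.0713, 0.0667, 0.0739, 0.0826 and 0.0669 in that order.

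Peg3 shares its promoter region with Usp29, a paternally expressed gene on the other strand that encodes a ubiquitin protease. The RefSeq start sites of Peg3 at 6730419 and of Usp29 at 6730583 of chromosome 7 (GRCm38.p6) leave 163 bases between them. They are shown because both neighbors were lower, read in the direction of Peg3 (minus strand, chr7:6730420-6730582) with each CCAAT box, written CCAAT or as its reverse complement, in capitals:
Peg3-Usp29: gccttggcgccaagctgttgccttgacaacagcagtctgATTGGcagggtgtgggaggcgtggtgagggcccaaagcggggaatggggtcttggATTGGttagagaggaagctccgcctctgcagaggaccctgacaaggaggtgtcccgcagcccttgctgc
The 163 bases held 5 CpG and 2 CCAAT boxes, a motif found on either strand in 37.4% of the 32851 promoter windows of RefSeq (250 bases before to 50 after a start). In the Peg3 window the cAMP response element TGACGTCA stood at -178 from the Peg3 start and the palindrome GGGGCCCC at -201, both beyond the Usp29 start. TGACGTCA is in 1.79% and GGGGCCCC in 1.08% of all windows. Usp29 averaged 57.2 ± 6.61 normalized counts in siL-DHX15-LEC and 86.3 ± 12.7 in WT-LEC (SD, n = 4 each), a log2 difference of -0.58 ± 0.15 (SE, adjusted p = 0.0104, limma). This value lies close to that of Peg3. The other genes of the domain, Zim1, Zim3 and Zfp264, had means under 10 and were not tested.

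H19 (ENSMUSG00000000031.15, chr7:142575529-142578143, minus strand) is a maternally expressed long noncoding RNA, abundant in fetal liver, whose first exon holds the precursor of miR-675. It had 236, 268, 294 and 270 normalized counts in siL-DHX15-LEC replicates 1 to 4, against 452, 331, 296 and 355 in WT-LEC replicates 1 to 4. The groups did not overlap, but the highest siL-DHX15-LEC library and the lowest WT-LEC library nearly met. On the log2 scale the difference was -0.41 ± 0.12 (SE, adjusted p = 0.0226, limma). The call was lost without siL-DHX15-LEC replicate 1 (-0.35, adjusted p = 0.0693), without WT-LEC replicate 4 (-0.41, adjusted p = 0.0544) and in limma without a variance trend (adjusted p = 0.0519). H19-001, which held 93.0% of the gene, averaged 239 ± 36.5 in siL-DHX15-LEC and 342 ± 79.4 in WT-LEC (SD, n = 4 each) and did not pass among isoforms (-0.50 ± 0.18, SE, adjusted p = 0.123).

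The 2 mature products of the hairpin within H19 are printed from RefSeq with the seed, bases 2 to 8, in capitals, because their host was lower:
mmu-miR-675-5p: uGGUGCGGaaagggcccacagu
mmu-miR-675-3p: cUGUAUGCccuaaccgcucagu
The hairpin lies on the minus strand at chr7:142577064-142577147, inside an exon of H19-001. It was listed at 0 in every library, and libraries of fragmented poly-A RNA do not measure mature miRNAs, so the values above are those of the host transcript alone.

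Igf2 (ENSMUSG00000048583.16, chr7:142650766-142666816, minus strand) lies 72623 bases from H19, is expressed from the paternal copy and encodes the main fetal growth factor of the insulin family. It was the lowest of the 10 genes, with 22.1, 28.3, 28.97 and 19.9 normalized counts in siL-DHX15-LEC replicates 1 to 4, against 41.2, 26.2, 37.6 and 31.2 in WT-LEC replicates 1 to 4. The groups overlapped, and 13 to 40 reads per library lay behind these values. A log2 fold change of -0.44 ± 0.21 (SE) did not pass (adjusted p = 0.124, limma), and its 95% interval ran from -0.89 to 0.01. Its main isoform Igf2-002 averaged 20.1 ± 6.43 in siL-DHX15-LEC and 24.5 ± 11.3 in WT-LEC (SD, n = 4 each, adjusted p = 0.805). H19 and Igf2 had estimates of like size and sign, and that of Igf2 was not distinguishable from 0 at this depth.

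**Figure D2:**
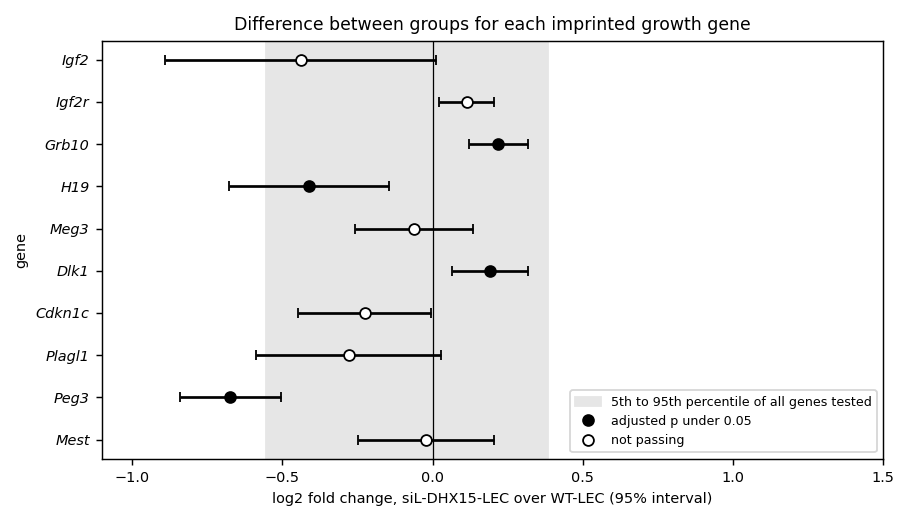
Log2 fold change (horizontal axis, siL-DHX15-LEC over WT-LEC) with its 95% interval for each of the 10 imprinted growth genes, filled where the adjusted p was under 0.05, over the 5th to 95th percentile of all genes tested (grey). Peg3 at -0.67 lies outside the grey range, and H19, Dlk1 and Grb10 lie inside it.

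Igf2r (ENSMUSG00000023830.13, chr17:12682406-12769664, minus strand) encodes the mannose 6-phosphate receptor that carries IGF2 to the lysosome, and in mouse it is expressed from the maternal copy. It had 11673, 11292, 11466 and 11025 normalized counts in siL-DHX15-LEC replicates 1 to 4, against 10371, 11234, 10507 and 9917 in WT-LEC replicates 1 to 4. Replicate 2 of WT-LEC lay within the siL-DHX15-LEC range, and the other WT-LEC libraries lay below it. Its log2 fold change of 0.11 ± 0.04 (SE) narrowly missed the threshold (adjusted p = 0.0547, limma). With equal totals it was 0.047 (adjusted p = 0.465). It passed without WT-LEC replicate 2 (0.15, adjusted p = 0.0143), without siL-DHX15-LEC replicate 4 (0.13, adjusted p = 0.0351) and among genes with a mean of at least 50 (adjusted p = 0.0485). Nearly all of the gene was Igf2r-001, which averaged 11359 ± 275 in siL-DHX15-LEC and 10504 ± 544 in WT-LEC (SD, n = 4 each) and did not pass among isoforms (adjusted p = 0.128). The long noncoding RNA Airn, transcribed from the other strand within Igf2r and known in mouse for silencing the paternal Igf2r copy, averaged 92.0 ± 22.3 in siL-DHX15-LEC and 125 ± 14.4 in WT-LEC (SD, n = 4 each). Its log2 fold change of -0.46 ± 0.17 (SE) did not pass (adjusted p = 0.0601), and it passed without siL-DHX15-LEC replicate 3 (-0.58, adjusted p = 0.0303), without siL-DHX15-LEC replicate 4 (-0.51, adjusted p = 0.0494) and with equal totals (-0.53, adjusted p = 0.0438).

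Grb10 (ENSMUSG00000020176.17, chr11:11930508-12038683, minus strand) encodes an adaptor that binds the insulin and IGF1 receptors and dampens their signal. In mouse it is expressed from the maternal copy in most tissues and from the paternal copy in neurons. It had 25693, 24928, 23361 and 22865 normalized counts in siL-DHX15-LEC replicates 1 to 4, against 21414, 21453, 20354 and 19919 in WT-LEC replicates 1 to 4. Every siL-DHX15-LEC library lay above every WT-LEC library. For the gene as a whole the log2 fold change was 0.22 ± 0.04 (SE), with a 95% interval of 0.12 to 0.32 and an adjusted p of 0.00334 (limma). Over the alternatives it ranged from 0.15 to 0.25, with the lowest value at equal totals (adjusted p = 0.0258).

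The isoform Grb10-005 of 596 residues held 97.3% of the gene and starts at 12037401 of chromosome 11. It averaged 23456 ± 1255 normalized counts in siL-DHX15-LEC and 20320 ± 741 in WT-LEC (SD, n = 4 each), a log2 difference of 0.21 ± 0.04 (SE, adjusted p = 0.0209, limma over all isoforms). Its call was lost with equal totals (0.14, adjusted p = 0.0866), in limma without a variance trend (adjusted p = 0.116), and without any one of siL-DHX15-LEC replicates 1 and 2 and WT-LEC replicates 3 and 4 (adjusted p of 0.0537, 0.0603, 0.0650 and 0.0662 in that order). Grb10-009 of 541 residues starts 9430 bases further into the gene and, with 1.36% of it, was named after its values were seen. It had 350, 479, 495 and 344 in siL-DHX15-LEC replicates 1 to 4, against 144, 259, 236 and 140 in WT-LEC replicates 1 to 4. The groups were apart, and its share of the gene was 1.73% ± 0.353 in siL-DHX15-LEC and 0.936% ± 0.286 in WT-LEC (SD, n = 4 each). The log2 fold change of 1.13 ± 0.24 (SE) passed (adjusted p = 0.0190), and the call was lost without siL-DHX15-LEC replicate 2 (1.06, adjusted p = 0.0555), without siL-DHX15-LEC replicate 3 (1.04, adjusted p = 0.0578), without WT-LEC replicate 4 (0.99, adjusted p = 0.0524) and without a variance trend (adjusted p = 0.0511).

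The use of start sites was not measured. Grb10-004, named outside the rule, has its start at 11970642 and did not pass (0.61 ± 0.45, SE, adjusted p = 0.442, limma over all isoforms). Since Grb10-005 and Grb10-009 were both higher, the 250 bases before each RefSeq start are printed, with every CpG in capitals. They are read from the minus strand of chr11:12037421-12037670 and chr11:12027972-12028221 (GRCm38.p6):
Grb10 at Grb10-005: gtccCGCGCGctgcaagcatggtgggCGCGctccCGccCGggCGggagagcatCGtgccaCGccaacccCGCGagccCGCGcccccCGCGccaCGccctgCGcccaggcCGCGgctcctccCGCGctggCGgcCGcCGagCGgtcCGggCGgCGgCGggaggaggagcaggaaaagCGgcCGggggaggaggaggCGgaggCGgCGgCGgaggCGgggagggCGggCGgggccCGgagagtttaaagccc
Grb10 at Grb10-009: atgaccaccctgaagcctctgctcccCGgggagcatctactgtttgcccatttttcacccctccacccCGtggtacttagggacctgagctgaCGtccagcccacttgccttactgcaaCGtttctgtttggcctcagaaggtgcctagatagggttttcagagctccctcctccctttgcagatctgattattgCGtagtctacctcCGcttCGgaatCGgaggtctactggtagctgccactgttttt
The stretch before Grb10-005 holds 40 CpG and is 81.2% G or C, and that before Grb10-009 holds 8 CpG and is 54.0% G or C. In the full windows of 300 bases these are 45 and 9 CpG, against a median of 7 over all 32851 windows, and 1.93% of the windows hold 45 or more. Neither window holds TGACGTCA, CCAAT or TATAAA on either strand. RefSeq gave promoter windows for 8 of the 10 genes.

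Dlk1 (ENSMUSG00000040856.17, chr12:109452823-109463336, plus strand) encodes a transmembrane protein with EGF-like repeats that restrains the differentiation of fat cells, and is expressed from the paternal copy. It had 1216, 1190, 1226 and 1074 normalized counts in siL-DHX15-LEC replicates 1 to 4, against 1045, 1052, 1055 and 968 in WT-LEC replicates 1 to 4. The groups did not overlap, although siL-DHX15-LEC replicate 4 nearly reached the upper WT-LEC libraries. The log2 fold change was 0.19 ± 0.06 (SE, adjusted p = 0.0254, limma). The call was lost with equal totals (0.12, adjusted p = 0.118), with the isoform of highest mean in place of the sum (adjusted p = 0.0884), and without any one of siL-DHX15-LEC replicates 1, 2 and 3 and WT-LEC replicate 4 (0.17, 0.18, 0.17 and 0.16, with adjusted p of 0.0716, 0.0564, 0.0809 and 0.0858 in that order). Dlk1-002, which encodes 385 residues and held 80.9% of the gene, averaged 941 ± 51.2 in siL-DHX15-LEC and 844 ± 36.1 in WT-LEC (SD, n = 4 each) and did not pass among isoforms (adjusted p = 0.173). Dlk1-003 of 290 residues averaged 100.5 ± 30.6 in siL-DHX15-LEC and 62.2 ± 38.8 in WT-LEC, with overlapping groups (adjusted p = 0.302).

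Meg3 (ENSMUSG00000021268.17, chr12:109541001-109571726, plus strand) is a maternally expressed long noncoding RNA of the same domain, 77665 bases from Dlk1. It had 331, 403, 310 and 376 normalized counts in siL-DHX15-LEC replicates 1 to 4, against 355, 353, 376 and 391 in WT-LEC replicates 1 to 4. The WT-LEC range lay inside the siL-DHX15-LEC range, and the log2 fold change of -0.06 ± 0.09 (SE) did not pass (adjusted p = 0.619, limma, 95% interval -0.26 to 0.13). Its transcripts were spread over several isoforms. Meg3-001 held 45.8% ± 1.41 of the gene in siL-DHX15-LEC and 48.3% ± 5.10 in WT-LEC, and Meg3-003 held 12.7% ± 3.45 in siL-DHX15-LEC and 15.2% ± 5.07 in WT-LEC (SD, n = 4 each). Meg3-005 held 27.5% ± 2.72 in siL-DHX15-LEC and 23.8% ± 1.76 in WT-LEC, with overlapping libraries and an exact two-sided permutation p of 0.0571, where 4 against 4 allows no p below 0.029. Meg3-010 held 7.56% ± 2.501 in siL-DHX15-LEC and 6.80% ± 1.19 in WT-LEC. Of the other genes of the domain, Rian, a noncoding host of small nucleolar RNAs, differed by 0.17 ± 0.07 on the log2 scale (SE, adjusted p = 0.0753) that passed without siL-DHX15-LEC replicate 3 (0.21, adjusted p = 0.0455) and was 0.099 with equal totals (adjusted p = 0.284). The microRNA host Mirg did not pass (-0.14 ± 0.14, SE, adjusted p = 0.457). Dio3, which encodes the deiodinase that inactivates thyroid hormone, was lower, with 53.2 ± 9.27 normalized counts in siL-DHX15-LEC and 85.9 ± 21.7 in WT-LEC (-0.67 ± 0.19, SE, adjusted p = 0.0194). That call was lost without siL-DHX15-LEC replicate 1 (-0.55, adjusted p = 0.0563) and without WT-LEC replicate 4 (-0.64, adjusted p = 0.0532).

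Cdkn1c (ENSMUSG00000037664.13, chr7:143458339-143461050, minus strand) is maternally expressed and encodes p57Kip2, an inhibitor of cyclin-dependent kinases. It had 272, 229, 214 and 193 normalized counts in siL-DHX15-LEC replicates 1 to 4, against 260, 265, 259 and 270 in WT-LEC replicates 1 to 4. The siL-DHX15-LEC libraries were widely spread, 3 of them below every WT-LEC library and 1 above them all. The log2 fold change of -0.23 ± 0.10 (SE) did not pass (adjusted p = 0.109, limma). It passed without the siL-DHX15-LEC library that lay above, replicate 1 (-0.32, adjusted p = 0.0248), and with equal totals (-0.29, adjusted p = 0.0429).

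The spread of Cdkn1c was unequal among its isoforms. Cdkn1c-001, which encodes 348 residues, had 28.9, 13.3, 50.03 and 17.0 normalized counts in siL-DHX15-LEC replicates 1 to 4, against 70.1, 73.0, 37.6 and 92.6 in WT-LEC replicates 1 to 4. The groups overlapped through siL-DHX15-LEC replicate 3 and WT-LEC replicate 3. Its share of the gene was 12.1% ± 7.73 in siL-DHX15-LEC and 25.8% ± 8.25 in WT-LEC (SD, n = 4 each, exact two-sided permutation p = 0.0571). For this isoform the log2 fold change of -1.40 ± 0.44 (SE) did not pass (adjusted p = 0.0806, limma over all isoforms), and it passed without siL-DHX15-LEC replicate 3 (-1.74, adjusted p = 0.0399) and with DESeq2 on the recovered reads (-1.33, adjusted p = 0.0442). Cdkn1c-002 of 335 residues, the most abundant form, averaged 162 ± 40.3 in siL-DHX15-LEC and 159.7 ± 15.8 in WT-LEC. Cdkn1c-003 of 178 residues averaged 26.9 ± 12.9 in siL-DHX15-LEC and 27.7 ± 1.98 in WT-LEC (SD, n = 4 each), and both had large adjusted p (0.984 and 0.823).

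**Figure D3:**
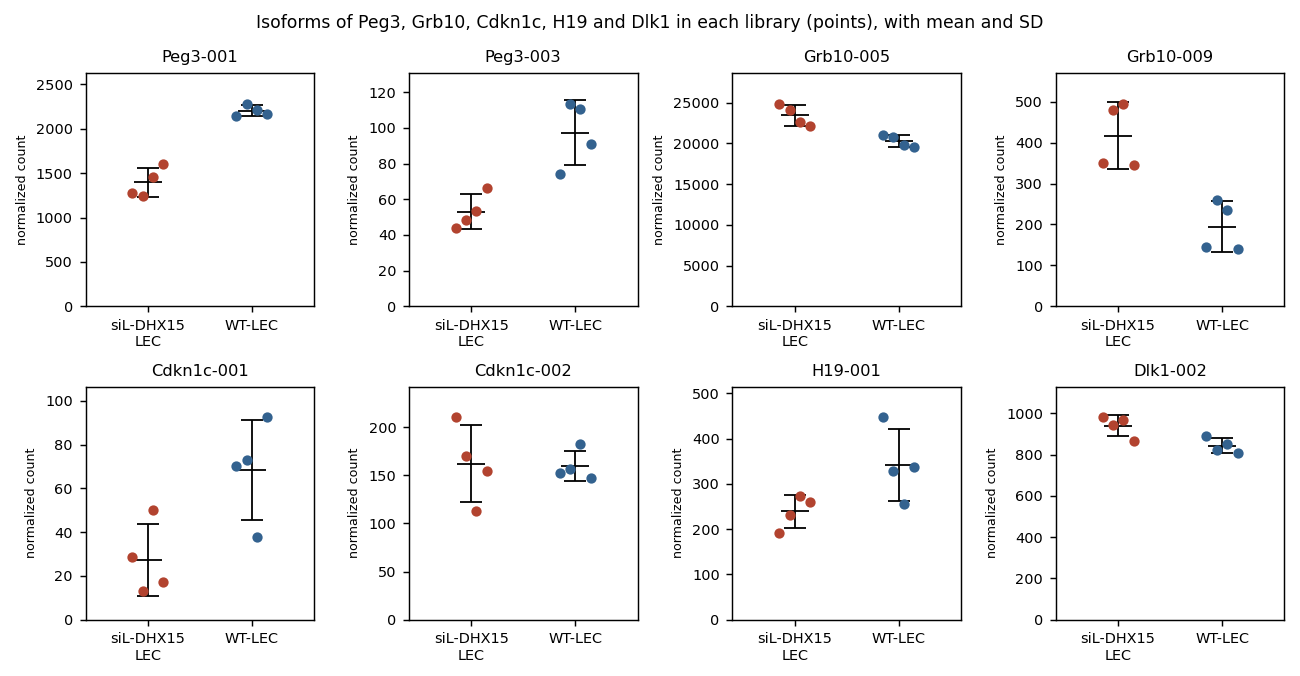
Normalized counts (vertical axis, from 0) of 8 isoforms of Peg3, Grb10, Cdkn1c, H19 and Dlk1 in each library, siL-DHX15-LEC (red) and WT-LEC (blue), with the mean and SD of 4 libraries as bars. The groups are apart for Peg3-001, Peg3-003, Grb10-005 and Grb10-009 and overlap for Cdkn1c-001, Cdkn1c-002, H19-001 and Dlk1-002.

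Plagl1 (ENSMUSG00000019817.18, chr10:13060504-13131694, plus strand) is paternally expressed and encodes the zinc finger factor ZAC1, known in mouse as a regulator of H19, Igf2, Cdkn1c and Dlk1. It had 119, 97.2, 133 and 134 normalized counts in siL-DHX15-LEC replicates 1 to 4, against 125, 171, 129 and 163 in WT-LEC replicates 1 to 4. The groups overlapped, and the log2 fold change of -0.28 ± 0.14 (SE) did not pass (adjusted p = 0.149, limma, 95% interval -0.59 to 0.03). Its main isoform Plagl1-001 averaged 90.2 ± 22.2 in siL-DHX15-LEC and 117 ± 16.7 in WT-LEC (SD, n = 4 each, adjusted p = 0.252). Plagl1-002 and Plagl1-003 averaged 15.2 ± 12.3 and 11.1 ± 19.9 in siL-DHX15-LEC, against 11.9 ± 11.5 and 9.48 ± 6.44 in WT-LEC, each with libraries at 0.

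Mest (ENSMUSG00000051855.15, chr6:30723547-30748465, plus strand) is paternally expressed and encodes a protein of the endoplasmic reticulum with a hydrolase fold. It had 455, 579, 641 and 616 normalized counts in siL-DHX15-LEC replicates 1 to 4, against 649, 568, 534 and 562 in WT-LEC replicates 1 to 4. Replicate 1 was the lowest of siL-DHX15-LEC and replicate 1 the highest of WT-LEC, and the groups overlapped throughout. The log2 fold change of -0.02 ± 0.10 (SE) did not pass (adjusted p = 0.889, limma, 95% interval -0.25 to 0.21). Its sign turned without siL-DHX15-LEC replicate 1 (0.08, adjusted p = 0.466) and without WT-LEC replicate 1 (0.04, adjusted p = 0.827). Mest-001 held 94.9% of the gene and averaged 542 ± 84.6 in siL-DHX15-LEC and 551 ± 48.5 in WT-LEC (SD, n = 4 each, adjusted p = 0.894). The exons of Mest share 912 bases with those of Copg2 on the other strand, a coat protein gene that was higher, with 13735 ± 829.6 normalized counts in siL-DHX15-LEC and 10439 ± 380.5 in WT-LEC (0.39 ± 0.05, SE, adjusted p = 0.000139). The libraries keep strand, but the use of strand in counting is not given in the sources used here.

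Of the 93 isoforms of the 10 genes 74 had a value above 0 and 30 had a mean of at least 10. Among these 30 the 4 isoforms of Peg3 and Grb10 described above passed, beside 10.4% of all isoforms tested. Isoform usage, the log2 ratio of an isoform to its gene, could be tested for 12 isoforms of Cdkn1c, Meg3, Dlk1 and Plagl1, and 0 passed, beside 8.03% of all isoforms tested for usage. At an unadjusted p under 0.05 stood 2 of the 12, Cdkn1c-001 (-1.17 ± 0.45, SE, adjusted p = 0.178, limma) and Meg3-005 (0.21 ± 0.08, SE, adjusted p = 0.208). With diffSplice, which pools the variance of the isoforms of a gene, 1 passed, Cdkn1c-001 (-1.32, adjusted p = 0.0472).

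**Figure D4:**
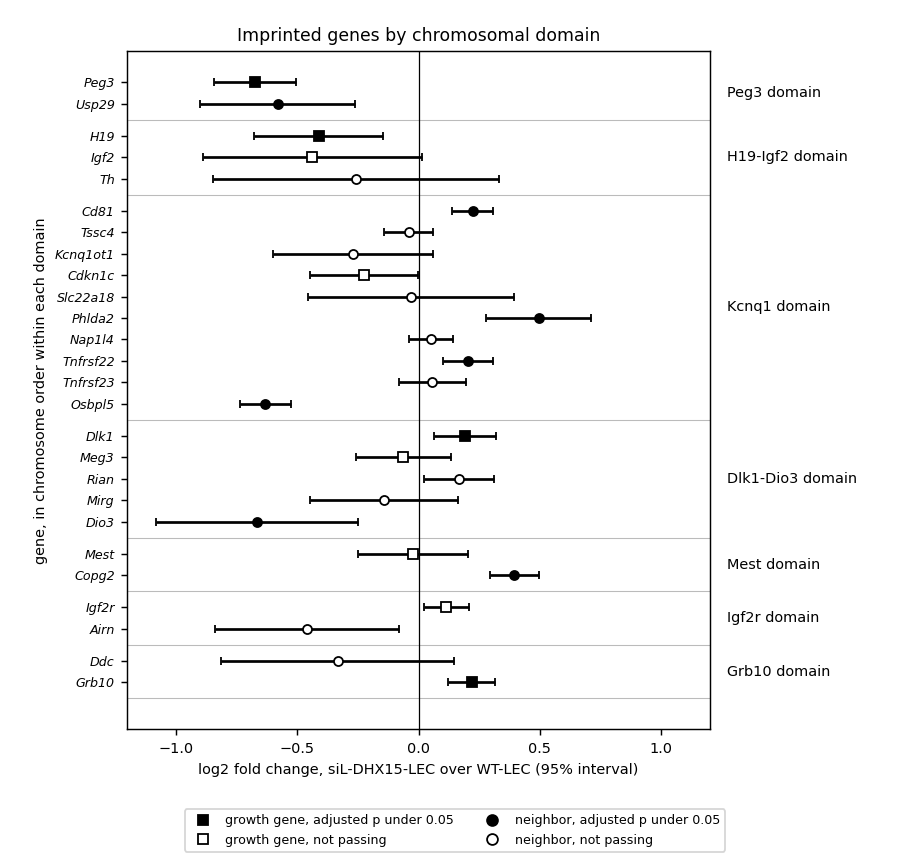
Log2 fold change (horizontal axis, siL-DHX15-LEC over WT-LEC) with 95% interval of the imprinted growth genes (squares) and their tested neighbors (circles) in 7 chromosomal domains, filled where the adjusted p was under 0.05. Peg3 and Usp29 lie together below 0 (-0.67 and -0.58), while the Kcnq1 domain of Cdkn1c holds values from -0.63 for Osbpl5 to 0.50 for Phlda2.

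Other imprinted genes were read from a list of 67, of which 52 were tested and 18 passed, 8 higher and 10 lower (34.6%, near the 33.2% of all genes tested, with a median log2 fold change of -0.11). With equal totals 7 were higher and 17 lower. By the smallest p these were led by Osbpl5, an oxysterol-binding protein in the domain of Cdkn1c, with 2038 ± 78.8 normalized counts in siL-DHX15-LEC and 3158 ± 150.2 in WT-LEC (-0.63 ± 0.05, SE, adjusted p = 8.66e-06, limma). The tumor suppressor and transcription factor Wt1, which is also on the list of mesothelial markers, was lower too (-0.35, adjusted p = 9.24e-05). The next 4 were Copg2 and 3 further genes that were higher, the membrane transporter gene Atp10a (0.38, adjusted p = 0.000159), the lactonase gene Pon2 (0.27, adjusted p = 0.000562) and Gnas, which encodes the stimulatory G protein alpha subunit (0.21, adjusted p = 0.00125). Whether the genes on this list are imprinted in these cells was not measured. Neighbors of the 10 genes were named outside the rule, after their values were seen. In the domain of Cdkn1c, Phlda2, a maternally expressed restrainer of placental growth, was higher, with 186 ± 10.6 normalized counts in siL-DHX15-LEC and 132 ± 13.2 in WT-LEC (0.50 ± 0.10, SE, adjusted p = 0.00302), and so were Cd81 (0.22, adjusted p = 0.00141) and Tnfrsf22 (0.20, adjusted p = 0.00684), the last of which did not pass with its isoform of highest mean alone (adjusted p = 0.248). The antisense RNA Kcnq1ot1 of that domain did not pass (-0.27 ± 0.15, SE, adjusted p = 0.187), and it passed without siL-DHX15-LEC replicate 4 (-0.39, adjusted p = 0.0388).

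The growth factor pathway around Igf2, Igf2r and Grb10 was read from a list of 19 genes, of which 16 were tested, 4 were higher and 4 lower (50%, beside 33.2% of all genes tested, median -0.04). With equal totals 4 were higher and 6 lower. The binding protein genes, whose products hold IGF outside cells, were divided, with Igfbp3, Igfbp4 and Igfbp6 higher and Igfbp2 lower. Igfbp3 had 10713 ± 897 normalized counts in siL-DHX15-LEC and 6301 ± 302 in WT-LEC (0.76 ± 0.06, SE, adjusted p = 8.36e-06, limma), and the log2 fold changes of Igfbp4 and Igfbp6 were 0.34 and 0.34. Igfbp2, named after its values were seen like Igfbp7, Igf2bp1 and Igf2bp3 below, had 11.99 ± 4.82 in siL-DHX15-LEC and 24.7 ± 4.03 in WT-LEC (-1.05 ± 0.29, SE, adjusted p = 0.0161). Its call was lost without WT-LEC replicate 4 (-0.98, adjusted p = 0.0516) and with its isoform of highest mean alone (adjusted p = 0.133). Igfbp7 did not pass, with 10358 ± 368 in siL-DHX15-LEC and 10358 ± 338 in WT-LEC (adjusted p = 0.999). The insulin receptor substrate genes on the list, Irs1 and Irs2, were lower. Their products relay the signal that Grb10 dampens, and a link of these values to Grb10 was not tested. Irs1 had 3602 ± 283 in siL-DHX15-LEC and 5493 ± 241 in WT-LEC (-0.61 ± 0.06, SE, adjusted p = 3.28e-05), and Irs2 a log2 fold change of -0.27 (adjusted p = 0.000754). The genes for proteins that bind Igf2 mRNA were divided as well. Igf2bp2 was higher (0.32, adjusted p = 5.58e-05) and Igf2bp3 lower (-0.34, adjusted p = 0.00246). Igf2bp1 did not pass (-0.07, adjusted p = 0.128). It passed with equal totals (-0.14, adjusted p = 0.00334), with TMM (-0.096, adjusted p = 0.0330) and with edgeR on the recovered reads (-0.096, adjusted p = 0.0346).

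Beside Cdkn1c, the list of 6 other inhibitors of cyclin-dependent kinases had 4 higher and 0 lower (66.7%, beside 33.2% of all genes tested, median 0.15). Cdkn1a, which encodes p21, had 5049 ± 244 normalized counts in siL-DHX15-LEC and 3715 ± 144 in WT-LEC (0.44 ± 0.05, SE, adjusted p = 6.67e-05, limma), and Cdkn2a followed with 0.24 (adjusted p = 0.00121). Cdkn2b and Cdkn1b had 0.15 each (adjusted p = 0.0286 and 0.0305), and with equal totals neither passed (0.08 each, adjusted p = 0.230 and 0.241) and 2 of the 6 were higher and 1 lower. Cdkn2b also lost its call without any one of siL-DHX15-LEC replicates 1, 2 and 3 and WT-LEC replicates 3 and 4 (adjusted p of 0.0560, 0.0811, 0.0849, 0.0796 and 0.0956 in that order). Cdkn1b lost it without any one of siL-DHX15-LEC replicates 1, 2 and 4 and WT-LEC replicates 3 and 4 (adjusted p of 0.0706, 0.0660, 0.0534, 0.0977 and 0.0824 in that order). In limma without a variance trend neither gene passed (adjusted p = 0.0626 for Cdkn2b and 0.0707 for Cdkn1b), and 2 of the 6 were higher. With edgeR on the recovered reads Cdkn1b did not pass (adjusted p = 0.0522).

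Factors that set or keep imprints were read from a list of 22, of which 19 were tested, 2 were higher and 2 lower (21.1%, beside 33.2% of all genes tested, median -0.02). The DNA methyltransferase genes Dnmt1 and Dnmt3a had log2 fold changes of 0.13 ± 0.04 and 0.15 ± 0.04 (SE, adjusted p = 0.0194 and 0.0174, limma), and with equal totals neither passed (0.06 and 0.08, adjusted p = 0.123 and 0.160), 0 of the 19 were higher and 5 were lower. Without any one of siL-DHX15-LEC replicates 1, 2 and 3 and WT-LEC replicates 3 and 4 both calls were lost, with adjusted p from 0.0503 to 0.0635. With the isoform of highest mean alone both were lost as well (adjusted p = 0.0529 for Dnmt1 and 0.200 for Dnmt3a). Tet1, which encodes an enzyme that oxidizes methylated cytosine, was lower (-0.46 ± 0.11, SE, adjusted p = 0.00816, but 0.223 with its isoform of highest mean alone), and so was the chromatin factor gene Arid4b (-0.39 ± 0.14, SE, adjusted p = 0.0433). The call of Arid4b was lost without any one of 6 libraries, siL-DHX15-LEC replicates 1 to 3 and WT-LEC replicates 2 to 4 (adjusted p from 0.0736 to 0.110). It was lost with edgeR (adjusted p = 0.0621) and DESeq2 (adjusted p = 0.0983) on the recovered reads and with TMM (adjusted p = 0.0563). The same held without a variance trend (adjusted p = 0.114), without the filter on low values (0.0535) and with the isoform of highest mean alone (0.128).

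**Figure D5:**
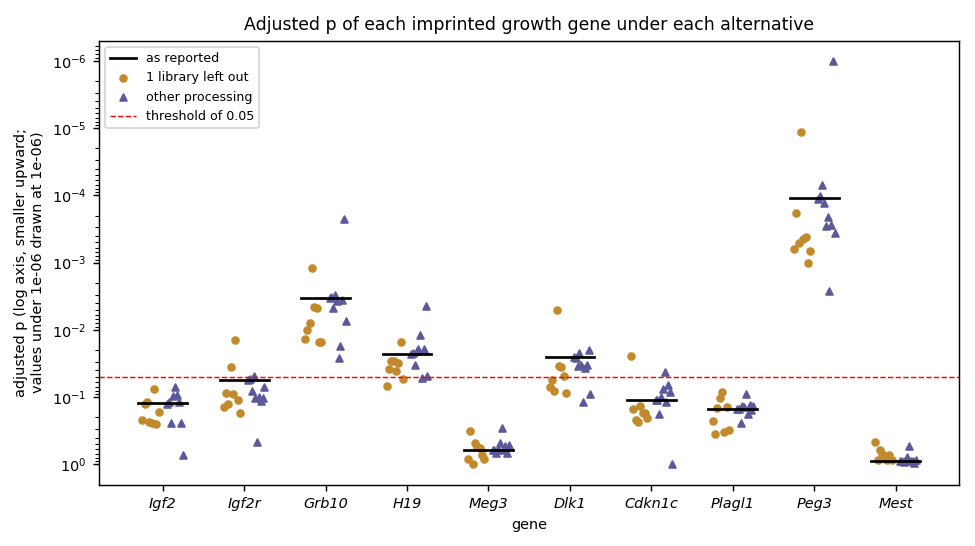
Adjusted p (vertical axis, log scale with smaller values upward) of each imprinted growth gene as reported (black bars), with 1 library left out (circles) and with other processing (triangles), beside the threshold of 0.05 (dashed). All points of Peg3 and Grb10 lie past the threshold, those of H19 and Dlk1 on both sides, and those of Igf2, Meg3, Plagl1 and Mest short of it.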

How the data were processed

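RNA-seq of 4 siL-DHX15-LEC and 4 WT-LEC libraries was used. STAR 2.5.2a served the authors for alignment to GRCm38, RSEM 1.2.28 for isoform counts over GENCODE M12, and DESeq2 1.18 for the size factors by which counts were divided, and the deposited signal is this normalized count per isoform. In each library 100% of values lay within 0.1 of a whole multiple of the value of 1 count. Whole counts were thus recovered, 77335734 to 152045693 per library, on which edgeR 4.0.16 called 5640 genes. They are called reads here, but are counts that RSEM assigned to isoforms from paired-end sequencing. Replicates were numbered in the order of their records.

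Isoforms were summed per gene. Features averaging 10 or more were tested with limma 3.58.1 under R 4.3.3, with a variance trend, on log2(normalized count + 1), two-sided, with Benjamini-Hochberg adjustment over all features at 0.05, so fold changes of low genes are understated. Usage was tested, without the trend, on the log2 ratio of an isoform to its gene (pseudocount of 1), for isoforms averaging 10 or more and 5% of a gene that had more than 1 of them. Shares were compared with exact permutation tests (scipy 1.17.1). Scripts were tested on simulated data. Levels per kilobase used GENCODE M21 transcript lengths on GRCm38, and sequences came from RefSeq tables of GRCm38.p6.

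Named were the 10 genes, their isoforms that averaged 10 or more and 5% of the gene, up to 6 genes with the smallest p past the threshold per list, and Dhx15. The genes and lists were chosen with earlier results of these data known. The alternatives were other pseudocounts (0.5 and 5), no filter or a minimum mean of 50, TMM, equal totals, no trend, edgeR, DESeq2 1.42.0, the isoform with the highest mean, an adjusted p of 0.001 for isoforms, diffSplice and a stricter filter for usage, and leaving out each library. Lane and run statistics of the sequencing center were not used.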

Additional observations from a re-analysis of the deposited data

Results flagged for a closer look

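In 2 of 64 groups of 4 libraries, each a gene or isoform named above in 1 condition, a library lay far from the other 3, and chance gives about 1 in 20. Dlk1, the EGF-like membrane protein gene, had 968 normalized counts in WT-LEC replicate 4, against 1045 in the next lowest WT-LEC library. The gap was 0.885 of the range of the group. The gene was higher in siL-DHX15-LEC with this library (adjusted p = 0.0254) and did not pass without it (0.16, adjusted p = 0.0858, limma). Plagl1-003, a minor isoform of the ZAC1 gene, had 40.8 normalized counts in siL-DHX15-LEC replicate 1, the shallowest library, against 3.51 in the next highest siL-DHX15-LEC library (0.914 of the range).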

How the results depend on the processing

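The number of changed genes (5478) was 4010 to 6543 with 1 library left out. That of changed isoforms (5242) was 2638 without a variance trend, 8068 with DESeq2, 144 at an adjusted p of 0.001 and 2920 to 5891 with 1 library left out, and that of isoforms with changed usage (1422) was 702 to 1155 with 1 library left out. Among the 10 genes the count of 4 called ranged from 2 (without WT-LEC replicate 4) to 5, and Mest alone turned in sign (-0.08 to 0.084 with 1 library left out). Igf2, Meg3, Mest and Plagl1 passed in none of their alternatives. Igf2, under a mean of 50, gave no value with that filter.

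The isoforms that turned in sign did not pass in any of these settings. With 1 library left out, Igf2-002 ranged from -0.52 to 0.046, Mest-001 from -0.097 to 0.083, Cdkn1c-003 from -0.42 to 0.059, Cdkn1c-002 from -0.14 to 0.15, Meg3-010 from -0.14 to 0.32 and Plagl1-002 from -0.54 to 1.05. Meg3-010 was -0.029 with equal totals. With edgeR and DESeq2, Cdkn1c-002 was 0.013 and 0.0074, Plagl1-002 0.38 and 0.36, and Plagl1-003 0.069 and 0.20. Plagl1-002 was 0.17 with a pseudocount of 5. For usage, Plagl1-001 was 0.086 with diffSplice, and with 1 library left out Meg3-010 ranged from -0.033 to 0.35, Cdkn1c-003 from -0.22 to 0.21, Plagl1-002 from -0.34 to 1.32 and Plagl1-003 from -1.82 to 0.030. The difference in share of the gene, in percentage points, ranged from -1.63 to 2.69 for Cdkn1c-003 and from -5.42 to 6.01 for Plagl1-003. The causes were not tested. No paired analysis was possible because the labels give the libraries no shared numbers. Igf2 had the fewest reads of the 10 genes, 13 to 40 per library, and the part of counting error in its spread was not tested.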
